A study of Mus musculus with 14 samples.

Results

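The genes described here are 9 genes of platelets and mast cells: Treml1, Clec1b, Gp6, Tubb1, F2rl2, Rab27b, Gp1bb, Cpa3 and Hdc. They were chosen because the authors' lists of regions with changed chromatin accessibility hold at least 1 region near each of them, so their presence in the lists, the direction and the size of their changes are descriptions and carry no test. Together they account for 21 of 9954 listed regions and for 9 of 6687 genes that the lists name. Each of the 9 symbols was found through its gene identifier, and none of the 21 regions was also paired with another gene.

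Open chromatin was profiled with ATAC-seq, an assay that uses Tn5 transposase to insert sequencing adapters into accessible DNA. The cells were erythro-myeloid progenitors sorted from the yolk sac of C57BL/6 mouse embryos at E10.5. Each library came from 500 sorted cells and 14 cycles of PCR, per the labels' protocols. All embryos were homozygous for a floxed allele of Ezh2 (Ezh2fl/fl), the gene of the histone H3 lysine 27 methyltransferase of Polycomb repressive complex PRC2. The lists compare 5 Tie2 KO samples, which carried a Tie2-Cre transgene active in endothelium and in the blood cells that arise from it, 3 Vav KO samples, which carried a Vav-Cre transgene active in blood cells, and 3 Tie2 WT samples, which had the floxed allele without the transgene. A further 3 Vav WT samples enter no list, so that Vav KO was set against a control of the other Cre line and line and genotype cannot be told apart there. The labels do not say whether the samples of a group came from separate embryos or litters. The lists give 1 fold change and 1 adjusted p-value for each region and no value for a sample, so the spread between samples and the depth of the libraries are unknown, and the level of a marker in the sorted cells could not be checked.

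Platelets are shed by megakaryocytes, which, like mast cells, can arise from the erythro-myeloid progenitors of the yolk sac. A platelet carries surface receptors for collagen, von Willebrand factor, thrombin and podoplanin, a ring of microtubules that keeps its disc shape, and granules that are released on activation. A mast cell stores histamine and proteases in its granules. In both lineages GATA factors are regulators of the genes that give the mature cell its receptors and granule contents, and in such bulk samples fewer cells of a lineage and less open chromatin per cell cannot be told apart.

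The promoters of 4 members are printed because a region called against Tie2 WT covers the whole window of each, so that these are the letters over which a knockout was called as changed. The windows of Treml1 and Tubb1, which are not printed, were covered whole only by regions called between the knockouts. Each window runs from 250 bases before the gene start to 50 bases after it, 5′ to 3′ on the strand of the gene, and comes from RefSeq on GRCm38.p6. Capitals mark a match to one of the motifs searched. The first 3 lay under regions lower in Tie2 KO than in Tie2 WT, and Gp1bb under a region lower in Vav KO than in Tie2 WT. The windows are chr6:129397047-129397346 on the plus strand for Clec1b, chr7:4397695-4397994 on the minus strand for Gp6, chr3:20242132-20242431 on the minus strand for Cpa3 and chr16:18622354-18622653 on the minus strand for Gp1bb.
Clec1b: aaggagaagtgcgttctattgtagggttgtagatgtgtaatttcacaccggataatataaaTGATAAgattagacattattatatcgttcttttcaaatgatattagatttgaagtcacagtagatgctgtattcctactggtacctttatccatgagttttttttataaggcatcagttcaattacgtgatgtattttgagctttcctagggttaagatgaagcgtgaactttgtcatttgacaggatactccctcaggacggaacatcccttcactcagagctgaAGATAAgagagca
Gp6: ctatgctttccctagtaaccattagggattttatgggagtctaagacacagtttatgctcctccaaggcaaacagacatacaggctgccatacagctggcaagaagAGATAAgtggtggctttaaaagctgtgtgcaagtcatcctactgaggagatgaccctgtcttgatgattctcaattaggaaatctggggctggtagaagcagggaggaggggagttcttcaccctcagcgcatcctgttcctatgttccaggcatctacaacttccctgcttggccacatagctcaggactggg
Cpa3: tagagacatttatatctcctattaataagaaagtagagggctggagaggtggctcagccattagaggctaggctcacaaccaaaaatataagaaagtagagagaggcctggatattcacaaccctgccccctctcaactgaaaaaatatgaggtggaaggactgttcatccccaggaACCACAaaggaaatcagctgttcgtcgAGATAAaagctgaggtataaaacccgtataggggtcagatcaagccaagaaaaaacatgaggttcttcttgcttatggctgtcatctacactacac
Gp1bb: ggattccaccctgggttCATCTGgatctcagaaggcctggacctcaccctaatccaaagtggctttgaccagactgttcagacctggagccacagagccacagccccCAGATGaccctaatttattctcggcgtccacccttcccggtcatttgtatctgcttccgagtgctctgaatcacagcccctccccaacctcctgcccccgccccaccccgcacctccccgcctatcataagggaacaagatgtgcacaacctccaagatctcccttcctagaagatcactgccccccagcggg

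The motifs were AGATAA and TGATAA (bound by GATA factors), CCGGAAG and CAGGAAG (ETS factors), TGTGGT (RUNX factors), TGAGTCA (AP-1 factors), a longer NFE2 motif that contains TGAGTCA, and CAGATG (an E-box), each searched on both strands. Promoter windows were found for 8 of the 9 members, all but Rab27b. AGATAA was found in 4 of the 8, those of Clec1b, Gp6, F2rl2 and Cpa3, and in 11.2% of the 32851 promoter windows of the reference table. TGATAA was found in Clec1b alone among the 8, and in 9.05% of all windows. In Cpa3 the AGATAA match began 46 bases before the gene start, in F2rl2 95 bases, and in Gp6 144 bases before it. In Clec1b TGATAA began 189 bases before the start and AGATAA lay past it, beginning at base 38 of the gene. TGTGGT was found in Cpa3 only, on the opposite strand (16.8% of all windows), TGAGTCA in F2rl2 only (5.2%), and CAGATG in Treml1 and Gp1bb (17.2%). Neither ETS motif was found in the 8 windows, against 8.86% of all windows for CCGGAAG and 13.3% for CAGGAAG, nor was the NFE2 motif, which 0.155% of all windows hold. The windows of Tubb1 and Hdc held none of the motifs. A match is a string of letters and was not set against any measure of binding.

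Most member promoters held fewer CpG dinucleotides than the median window of the reference table. Their number lay between 1, in Gp6, and 8, in Gp1bb, with a median of 3 over the 8 windows. Over all windows of the reference table the median was 7 and the lower quartile 3. Windows of genes whose start lay under a higher region of Tie2 KO against Tie2 WT had a median of 16, and those under a lower region a median of 7. The G+C content of the members ran from 36.3% in Clec1b to 58% in Gp1bb, with a median of 50.7% against 52.7% over all windows.

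Lower accessibility in Tie2 KO than in Tie2 WT was listed for 6 of the 9 members, Treml1, Clec1b, Gp6, Tubb1, F2rl2 and Cpa3, and higher accessibility for 1, Rab27b. Gp1bb and Hdc had no region in that comparison. Of the 21896 protein-coding genes of RefSeq, 2.51% had a lower and 11.5% a higher region there. In Vav KO against Tie2 WT, 4 members were lower, Treml1, Rab27b, Gp1bb and Hdc, and 0 were higher, with 2.59% and 5.29% of protein-coding genes as background. Between the knockouts, 5 members were lower in Tie2 KO than in Vav KO (Treml1, Clec1b, Tubb1, F2rl2 and Cpa3) and 3 were higher (Rab27b, Gp1bb and Hdc), with a background of 6.35% and 11.1%. Since the members were chosen from these lists, nothing is read from these shares. Of the 27 pairs of a member and a comparison, 19 had a region and 8 had none. A missing region says only that none passed the authors' thresholds, and 2 comparisons always share a group of samples, so that values set side by side below are not independent.

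**Figure D1:**
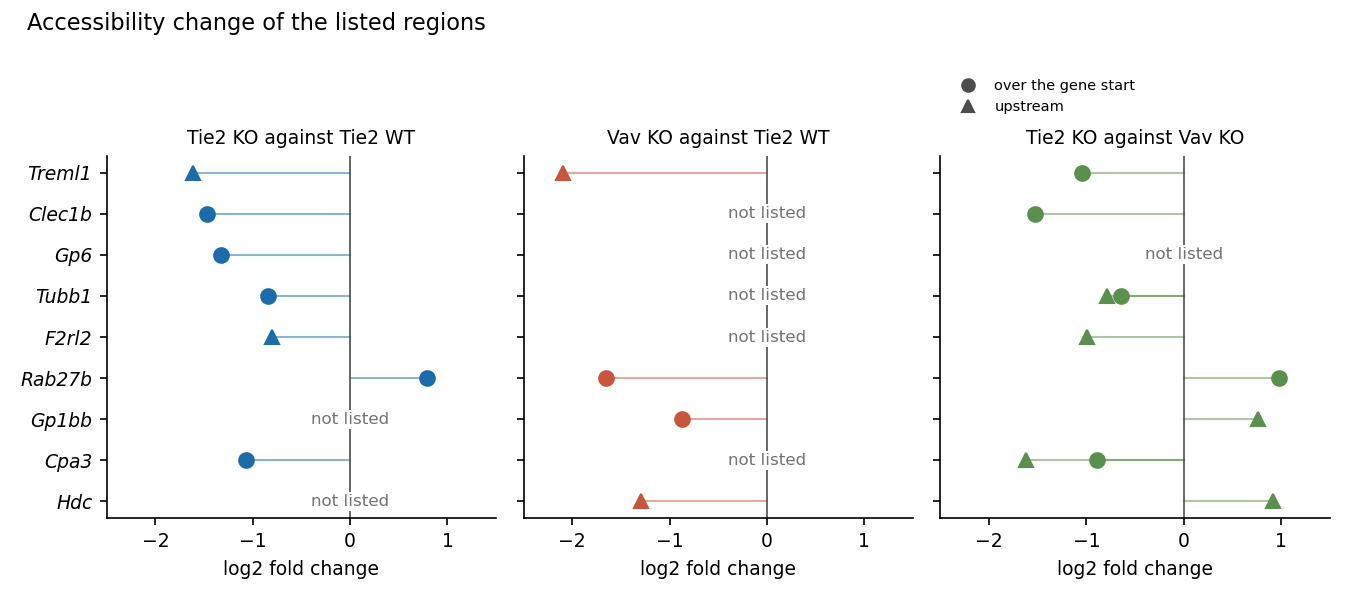
Log2 fold change of each listed region (x axis, authors' deposited table) for the 9 members (rows) in the 3 comparisons (panels), with circles for regions over the gene start and triangles for regions upstream. Members lower in Tie2 KO than in Tie2 WT, from Treml1 at -1.61 to F2rl2 at -0.8, lie left of 0 in the first panel, while Rab27b, Gp1bb and Hdc lie left of 0 in the second panel and right of 0 in the third.

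Among the platelet receptors, Treml1 encodes a receptor stored in the alpha granules of platelets and brought to the surface on activation. Its region at chr17:48354402-48355400, whose near edge lay 4515 bp upstream of the gene start, had in the authors' deposited table a log2 fold change of -1.61 (0.328 times the Tie2 WT level) and an adjusted p of 1.33e-07 in Tie2 KO against Tie2 WT. That adjusted p ranked 7 of the 619 lower regions of the comparison. In Vav KO against Tie2 WT the authors' deposited table lists nearly the same interval, chr17:48354302-48355400, at -2.1 (0.233 times) with an adjusted p of 2.14e-05. The intervals share 999 bp and the same edge nearest the gene, and differ by 100 bp at the other. Treml1 is the only member that was lower in both knockouts against Tie2 WT. Between the knockouts this upstream interval was not listed. Instead the authors' deposited table gives a region over the gene start, chr17:48358902-48360000, as lower in Tie2 KO than in Vav KO, at -1.05 with an adjusted p of 0.000381. The gap between the upstream and the gene start regions was 3501 bp.

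Clec1b encodes CLEC-2, the platelet receptor for podoplanin. Its region at chr6:129396602-129397600 covered the gene start, running from 695 bp upstream to 303 bp past it, and had a log2 fold change of -1.47 (0.361 times, adjusted p = 0.000157) in Tie2 KO against Tie2 WT in the authors' deposited table. Against Vav KO the authors' deposited table lists chr6:129396402-129398500 at -1.53 (0.346 times, adjusted p = 1.94e-05). That region holds the whole of the first and, at 2099 bp, ranks 30 of 1560 lower regions of its comparison by width. The values against the different reference groups thus lay 0.06 log2 units apart, and no region of Clec1b was listed in Vav KO against Tie2 WT.

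Gp6 encodes glycoprotein VI, the collagen receptor of platelets, and is the only member listed in a single comparison. Its region over the gene start, chr7:4397402-4398700, was at -1.33 (0.398 times, adjusted p = 0.00103) in Tie2 KO against Tie2 WT in the authors' deposited table.

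F2rl2 encodes protease-activated receptor PAR3, which takes part in the thrombin response of mouse platelets. Its regions lay far upstream of the gene and none reached the gene start. In the authors' deposited table, chr13:95692202-95693200 was at -0.8 (0.574 times, adjusted p = 0.000279) in Tie2 KO against Tie2 WT, with its near edge 3719 bp from the gene start. The region against Vav KO, chr13:95691502-95693300, was at -0.99 (0.503 times, adjusted p = 0.000503) in the authors' deposited table and contained the first, reaching 100 bp nearer to the gene.

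Gp1bb encodes the beta chain of glycoprotein Ib, part of the platelet receptor for von Willebrand factor. Like Treml1, it was listed as lower in Vav KO against Tie2 WT, and unlike Treml1 it had no region in Tie2 KO against Tie2 WT. In the authors' deposited table its region over the gene start, chr16:18622302-18623300, was at -0.87 (0.547 times, adjusted p = 0.00142) in Vav KO against Tie2 WT. In Tie2 KO against Vav KO a region of 1999 bp, chr16:18622802-18624800, was higher, at 0.76 (1.69 times, adjusted p = 1.32e-06) in the authors' deposited table. These regions share 499 bp, which is 49.9% of the first and 25% of the second. The second one ended 398 bp short of the gene start, and its centre lay 1000 bp further upstream. The printed Gp1bb promoter is therefore wholly inside the region lower in Vav KO and wholly outside the region that separates the knockouts.

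Of the genes for structure and secretion, Tubb1 encodes the beta-1 tubulin of the platelet microtubule ring. Its region at chr2:174449502-174450600 was at -0.84 (0.559 times, adjusted p = 1.59e-07) in Tie2 KO against Tie2 WT in the authors' deposited table. The region reached the gene start with only 5 bp to spare and held 256 of the 300 bases of the promoter window. Its adjusted p ranked 9 of 619, while its fold change ranked 328. Between the knockouts the authors' deposited table lists a pair of lower regions of this gene. One, chr2:174449602-174451200 over the gene start, was at -0.64 (0.642 times) with an adjusted p of 0.0168, and the other, chr2:174445302-174446400 with its near edge 4194 bp upstream, was at -0.79 (0.578 times) with an adjusted p of 2.41e-05, both from the authors' deposited table. The value of -0.64 is the smallest change and 0.0168 the largest adjusted p among the 21 member regions. The smallest absolute log2 fold change in any list was 0.58 and the largest adjusted p was 0.0479, and regions beyond those limits were not analysed here.

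Rab27b encodes a small GTPase that moves dense granules in platelets and secretory granules in mast cells. It is the only member listed in opposite directions in the knockouts against Tie2 WT. In the authors' deposited table, chr18:70141602-70142600 was higher in Tie2 KO, with 0.79 against Tie2 WT (1.73 times, adjusted p = 0.00122). Its overlapping region chr18:70141302-70142500 was lower in Vav KO than in Tie2 WT, at -1.65 (0.319 times, adjusted p = 0.000113), in the authors' deposited table. These intervals share 899 bp. Between the knockouts, chr18:70141002-70142600 was higher in Tie2 KO, at 0.98 (1.97 times, adjusted p = 0.00567) in the authors' deposited table. All 3 regions touched the gene start, though the region called against Tie2 WT in Tie2 KO passed it by 3 bp only.

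Of the mast cell genes, Cpa3 encodes carboxypeptidase A3, a granule protease. Its region in Tie2 KO against Tie2 WT, chr3:20241202-20245000, spanned 3799 bp, the greatest width among the 619 lower regions of that comparison. It ran from 2819 bp upstream of the gene start to 979 bp past it and had a log2 fold change of -1.07 (0.476 times, adjusted p = 5.08e-06) in the authors' deposited table. Between the knockouts the same stretch was listed as a pair of lower regions 201 bp apart. The one upstream, chr3:20243302-20245100, was at -1.62 (0.325 times, adjusted p = 5.48e-05), and the one over the gene start, chr3:20240402-20243100, at -0.89 (0.54 times, adjusted p = 0.000604), both in the authors' deposited table. The larger fold change thus stood at the upstream interval, whose near edge was 1120 bp from the gene start and which does not include the printed promoter with its AGATAA match.

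Hdc encodes histidine decarboxylase, the enzyme that makes histamine. Its region chr2:126619402-126620400 was lower in Vav KO than in Tie2 WT, at -1.29 (0.409 times, adjusted p = 0.00141) in the authors' deposited table, with its near edge 723 bp upstream of the gene start. In Tie2 KO against Vav KO, chr2:126619002-126620400 was higher, at 0.92 (1.89 times, adjusted p = 5.94e-05) in the authors' deposited table. The shorter region lay inside the longer one, with a common far edge. Cpa3 and Hdc, both mast cell genes, were thus listed as lower in different knockouts against Tie2 WT.

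**Figure D2:**
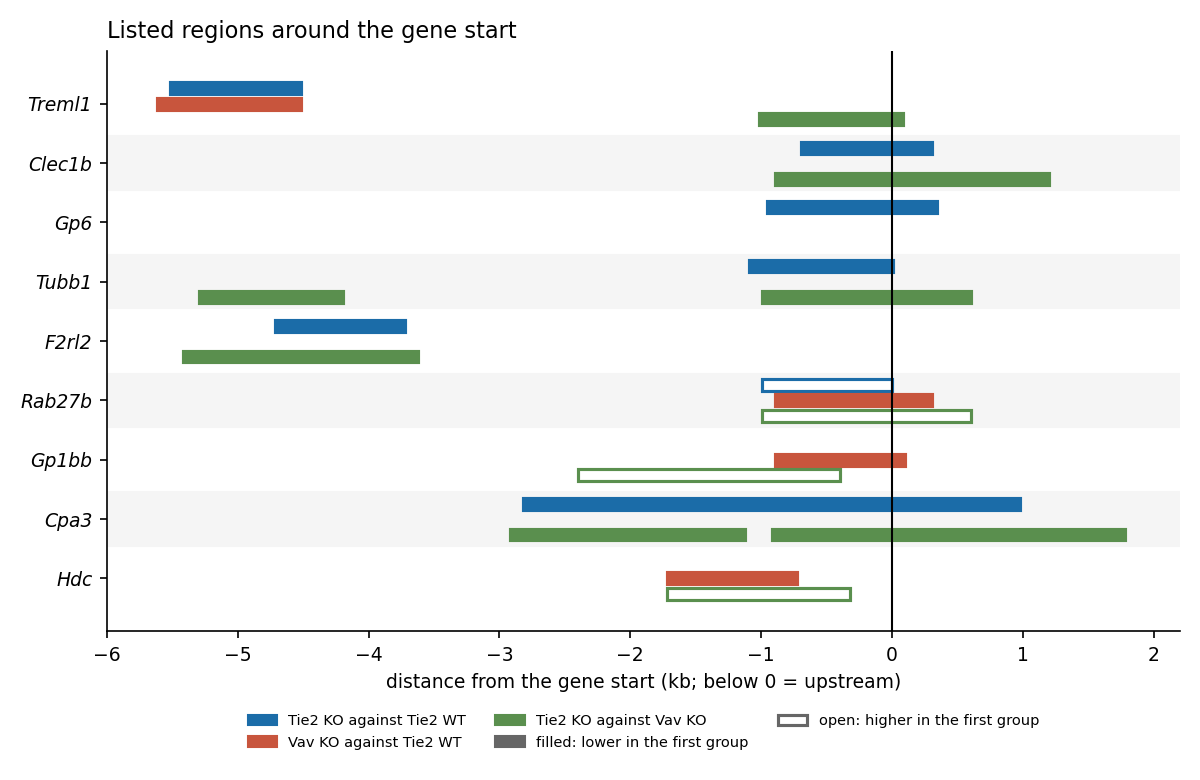
Listed regions of each member (rows) by their distance from the gene start in kb (x axis, with the start at 0 and values below 0 upstream), coloured by comparison, filled where the first group of the comparison was lower and open where it was higher. Regions of different comparisons overlap in 8 of the 9 members, a count for which no share over all genes was taken. The Treml1, Tubb1 and F2rl2 rows hold intervals more than 3 kb upstream.

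The position of the regions was not used to choose the members. Of the 21 regions, 12 covered the gene start and 9 lay upstream of it, and 7 of the 9 members had at least 1 region over the start, the exceptions being F2rl2 and Hdc. In Tie2 KO against Tie2 WT, 4 of 6 lower member regions covered the start, against 18.4% of all lower regions of that comparison. For Vav KO against Tie2 WT the count was 2 of 4 against 16.3%, and for Tie2 KO against Vav KO it was 4 of 7 lower member regions against 12%. Of the 3 member regions higher in Tie2 KO than in Vav KO, 1 covered the start, against 43.8% of all higher ones. These counts are small and regions of a gene are not independent, so no test was made.

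Across comparisons the regions of a member often overlapped. All listed regions lay within 4999 bp of a gene start, and the comparisons share samples. The same share over all genes listed in several comparisons was not counted, so the overlap is not read as particular to the members. Of 14 pairs of regions of the same member from different comparisons, 11 overlapped, and in 6 of the 11 the shorter region lay wholly inside the longer. No overlapping pair had both edges in common and 3 pairs had 1, on the 100 bp grid of the region edges. The centres of overlapping regions lay 50 to 1350 bp apart, with a median of 300 bp. The 3 pairs that did not overlap belonged to Treml1 and Tubb1, in which a gene start region and a region more than 4 kb upstream were listed in different comparisons. Fold changes of such pairs therefore refer to different stretches of DNA.

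Width was set beside that of all regions of the same kind. Lower member regions had a median width of 1049 bp in Tie2 KO against Tie2 WT, where all lower regions had a median of 1099 bp, and 1049 bp in Vav KO against Tie2 WT, where the median was 999 bp. Between the knockouts the lower member regions had a median of 1799 bp, against 1099 bp over all lower regions of that comparison. For Clec1b, F2rl2, Rab27b, Gp1bb and Hdc, each region from the direct comparison of the knockouts was wider than every region of the same gene against Tie2 WT. Cpa3 went the other way, with 2699 and 1799 bp between the knockouts and 3799 bp against Tie2 WT. Treml1 had 1099 bp between the knockouts, against 999 and 1099 bp, and Tubb1 had 1099 and 1599 bp, against 1099 bp. How often regions are wider between the knockouts among all genes listed in the same comparisons was not counted. The smallest width, 999 bp, was that of 6 member regions, all from comparisons with Tie2 WT, and it is also the smallest width in any list.

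**Figure D3:**
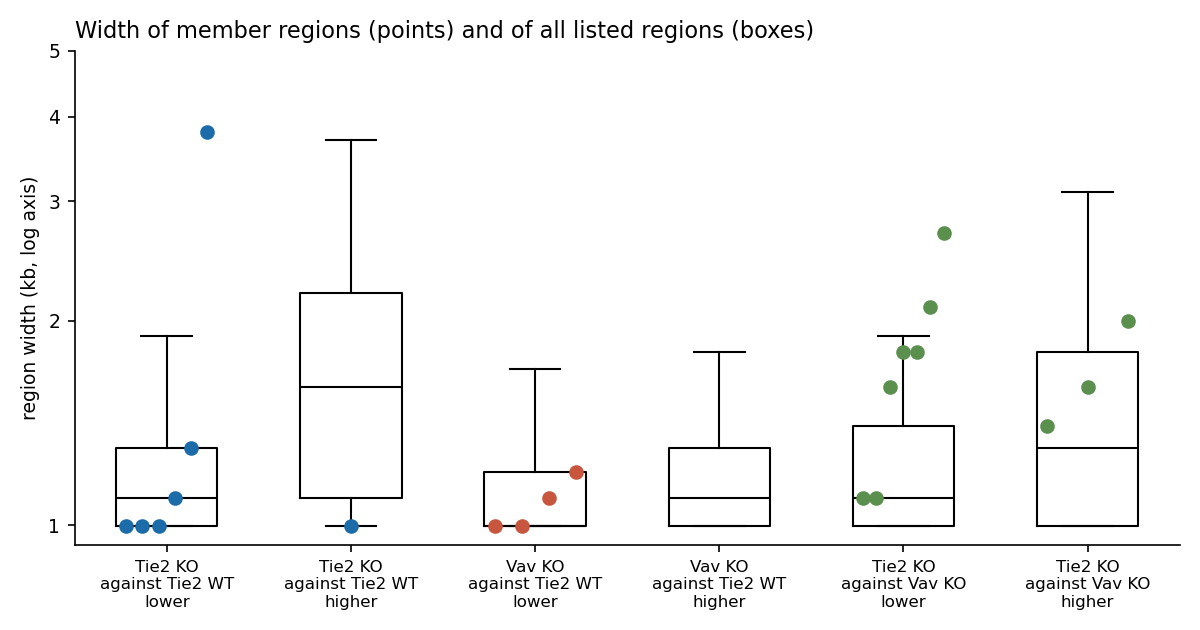
Width of the member regions (points, in kb on a log axis) by comparison and direction, over boxes for all listed regions of the same kind, with the median, the quartiles and whiskers from percentile 5 to 95. The Cpa3 region of 3799 bp stands at the top of the first column, and 5 of the 7 lower member regions between the knockouts lie above the upper quartile of 1399 bp.

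The other genes of these lineages were taken from a list of 80 platelet and megakaryocyte genes and a list of 49 mast cell genes, which hold 7 and 3 of the members. In Tie2 KO against Tie2 WT, 13 of the 80 platelet and megakaryocyte genes (16.2%, against 2.51% of all protein-coding genes) had a lower region and 4 (5%, against 11.5%) a higher one. Without the members, the counts were 8 of 73 (11%) and 3 of 73 (4.11%). Among the lower genes besides the members were Srgn, the proteoglycan core of secretory granules, the coagulation factor gene F5, Fermt3, which encodes the integrin activator kindlin-3, Lcp2, Bin2, Lat and Plcg2. Lcp2, Lat and Plcg2 encode signalling proteins that act downstream of the collagen receptor and CLEC-2. Of these, Plcg2 had an adjusted p above 0.01 in the authors' deposited table, and only Lcp2 was listed in another comparison. Syk and Fcer1g of the same gene list had no region in any comparison, and this pathway was not tested as a set. In the authors' deposited table Srgn was at -1.14, F5 at -0.85 and Fermt3 at -0.85. Higher were Rab27b and, in the authors' deposited table, the prostacyclin receptor gene Ptgir at 0.97, Slc35d3 at 0.9 and Lyst at 0.83, of which Slc35d3 and Lyst take part in making dense granules and lysosome-related organelles. The median log2 fold change of the lower genes of the list was -0.84 and that of all lower genes -0.85.

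In Vav KO against Tie2 WT, 6 of the 80 genes (7.5%) were lower and 6 (7.5%) higher, with Ptgir in both. Without the members, 3 of 73 were lower (4.11%, against 2.59%) and 6 higher (8.22%, against 5.29%). The lower genes besides the members were F5 at -1.69, Meis1, a homeobox regulator of megakaryocytes, at -1.06, and Ptgir at -0.89 in the authors' deposited table. The higher ones in the authors' deposited table were Serpine2 at 2.76, Mafg, a partner of NFE2, at 1.64, Adra2a at 1.17, Ptgir at 1.0, Unc13d at 0.82 and Myh9 at 0.72. The regions of Ptgir differ in position, the higher one lying 4389 bp and the lower one 589 bp upstream of the gene start.

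Between the knockouts, 12 of the 80 genes (15%, against 6.35%) were lower in Tie2 KO and 7 (8.75%, against 11.1%) higher, with Tbxas1 in both. Without the members the counts were 8 of 73 (11%) and 5 of 73 (6.85%). Among the lower genes besides the members were the collagen-binding integrin gene Itga2, the von Willebrand factor gene Vwf, the thromboxane synthase gene Tbxas1, Stxbp2, the ADP receptor gene P2ry12, Lcp2 and Lyst. The largest changes of these in the authors' deposited table were -2.04 at Itga2, -1.53 at Vwf, -1.52 at Tbxas1 and -1.12 at Stxbp2. Higher besides the members in the authors' deposited table were F5 at 2.2, the ATP receptor gene P2rx1 at 1.86, Tbxas1 at 1.36, F2rl3, which encodes the thrombin receptor PAR4, at 1.22, and Tuba8 at 0.73. The Tbxas1 regions of opposite direction overlap, with chr6:38870302-38871600 listed as higher and chr6:38871402-38872500 as lower. Of the 80 genes, 48 had no region in any of the lists, among them Itga2b, Gp1ba, Gp9, Pf4 and Ppbp, which encode receptors and granule proteins of platelets. The share of all protein-coding genes with no region in any list was not counted, so nothing is read from this number.

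Mast cell genes were listed in both directions in every comparison. In Tie2 KO against Tie2 WT, 3 of 49 were lower (6.12%, against 2.51%) and 3 higher (6.12%, against 11.5%), and without the members 2 of 46 (4.35%) in each direction. Lower were Cpa3, Srgn and Hpgds, which encodes a prostaglandin D synthase and was at -0.67 in the authors' deposited table, and higher were Rab27b and, in the authors' deposited table, Ptgs2 at 1.09 and Slc29a1 at 0.95. In Vav KO against Tie2 WT, 4 were lower (8.16%, against 2.59%) and 4 higher (8.16%, against 5.29%), and without the members 2 of 46 (4.35%) were lower and 4 (8.7%) higher. The lower ones besides Rab27b and Hdc were Gata2, a transcription factor needed for mast cells and blood progenitors, at -1.55 and Hpgds at -0.77 in the authors' deposited table. The higher ones in the authors' deposited table were the tryptase gene Tpsab1 at 2.32, Alox5ap, needed for leukotriene synthesis, at 1.96, Itgb7 at 1.76 and Btk at 1.11. Between the knockouts, 3 were lower in Tie2 KO (6.12%, against 6.35%) and 4 higher (8.16%, against 11.1%), shares near the background, and without the members 2 of 46 (4.35%) in each direction. Besides the members these were Alox5ap at -1.17 and Il1rl1, the receptor for interleukin 33, at -0.76, and on the higher side Cd200r3 at 1.18 and Gata2 at 0.92 in the authors' deposited table. Of the 49 genes, 35 had no region in any list, again without a share of all genes to set beside it. Among them were Kit, Fcer1a, Ms4a2 and Cma1, for the growth factor receptor, the IgE receptor chains and a chymase of mast cells.

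**Figure D4:**
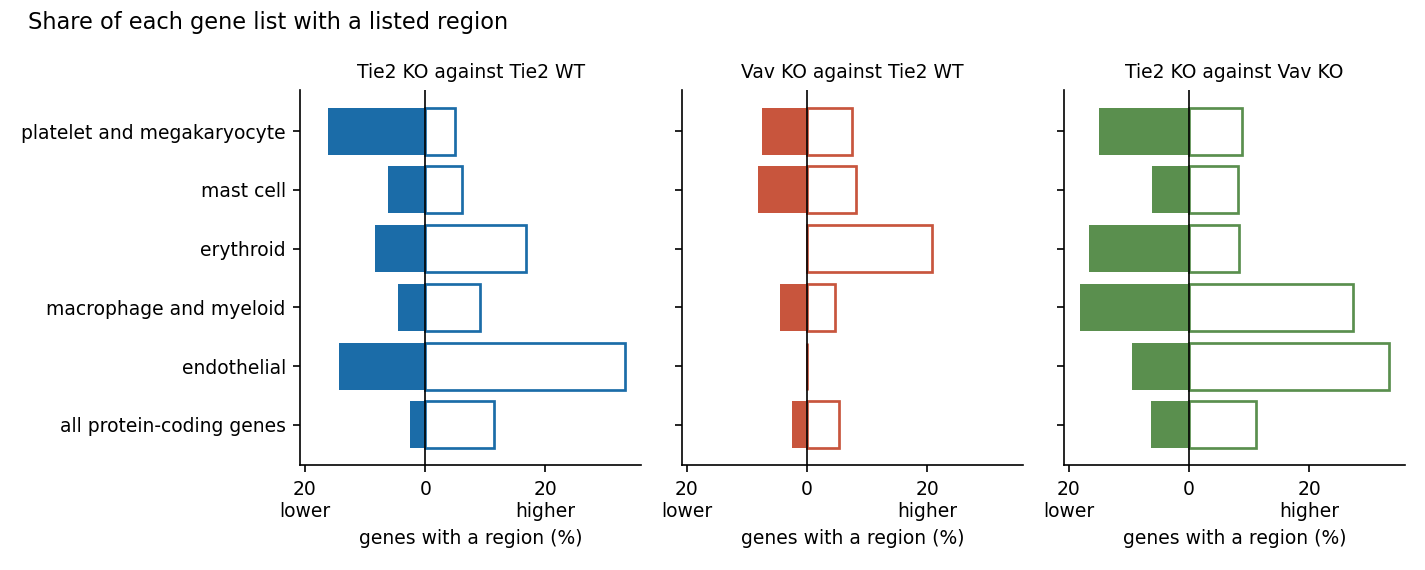
Share of each gene list with a lower (filled bars, to the left) or higher (open bars, to the right) region in the 3 comparisons (panels), in percent of the genes matched, with all protein-coding genes in the last row. The platelet and megakaryocyte row reaches 16.2% lower in Tie2 KO against Tie2 WT beside 2.51% of all protein-coding genes. That row includes members chosen from these lists, and without them the share is 11%. The gene lists were written with earlier results of these data known, so no test was made. The endothelial row, which includes Tek, reaches 33.3% higher in the same panel and 0 in the middle one.

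Markers of other cells were listed in the same comparisons. In Tie2 KO against Tie2 WT, where 11.5% of protein-coding genes had a higher and 2.51% a lower region, 7 of 21 endothelial genes (33.3%) were higher and 3 (14.3%) lower. Of 24 erythroid genes 4 (16.7%) were higher and 2 (8.33%) lower there, and of 22 macrophage and myeloid genes 2 (9.09%) were higher and 1 (4.55%) lower. In Vav KO against Tie2 WT, with a background of 5.29% higher and 2.59% lower, 0 endothelial genes were listed. Of the erythroid genes 5 (20.8%) were higher and 0 lower there, and of the macrophage and myeloid genes 1 (4.55%) was higher and 1 lower. Between the knockouts, with a background of 11.1% higher and 6.35% lower in Tie2 KO, 6 macrophage and myeloid genes (27.3%) were higher and 4 (18.2%) lower, with C1qc in both. Endothelial genes numbered 7 higher (33.3%) and 2 lower (9.52%) there, and erythroid genes 2 higher (8.33%) and 4 lower (16.7%). The part of a changed mix of cells in the values of the platelet and mast cell genes was not tested. Ezh2 itself had no region in any list, which does not check the deletion because only stretches near gene starts are listed. Tek, whose regulatory sequence drives Tie2-Cre, is among the 7 higher endothelial genes in both comparisons of Tie2 KO. In the authors' deposited table Tek was at 2.90 over 12899 bp in Tie2 KO against Tie2 WT. Against Vav KO it was at 2.92 over 12299 bp in the authors' deposited table. Each is the greatest width among the higher regions of its comparison. Vav1 was at 0.81 over 2499 bp in Vav KO against Tie2 WT in the authors' deposited table. In Tie2 KO against Vav KO it was at -0.9 over 4399 bp in the authors' deposited table.

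For the 8 members listed in at least 2 comparisons, all but Gp6, the most similar genes were taken by the Euclidean distance between log2 fold changes of the strongest region in each comparison, among genes listed in exactly the same comparisons. With 2 or 3 values a gene, many genes come close. For Rab27b, with 311 other genes listed in all 3 comparisons, they were Cys1, Foxa2 and Mir6973b, at distances of 0.051, 0.14 and 0.22. Cys1 was at 0.83, -1.62 and 0.99 in Tie2 KO against Tie2 WT, Vav KO against Tie2 WT and Tie2 KO against Vav KO in the authors' deposited table. For Treml1 they were Ino80d, Mir6963 and Zcrb1, which lay further off, at 0.66, 0.76 and 0.93. For Gp1bb they were Tfdp1, Zic2 and Plekhb1 and for Hdc Phxr4, Il1rn and Bahcc1, among 530 genes listed in the same comparisons. Among 1543 genes listed in both comparisons of Tie2 KO and not in the remaining one, they were Bicra, Uckl1os and Eif1a for Clec1b, and Npff, Lsmem1 and Mir7069 for Cpa3. In the same set they were Chd2, Mir199a-1 and Mir342 for Tubb1, and Sf3b1, Gtf2a2 and Tmbim6 for F2rl2.

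Other listed regions in the surroundings of the genes were looked up. Their number around all genes was not counted, so nothing is read from how many there were. Within 100 kb of the gene start, Clec1b, F2rl2, Rab27b, Cpa3 and Hdc had no region paired with another gene in any list. Near Tubb1, a region 26.4 kb away that was paired with Prelid3b was at -0.92 in Tie2 KO against Tie2 WT in the authors' deposited table. A region 36.1 kb from Tubb1 and paired with Nelfcd was at 2.03 in Vav KO against Tie2 WT in the authors' deposited table. Near Treml1, a region 91.8 kb away and paired with Tspo2 and Unc5cl was at -0.82 in Tie2 KO against Tie2 WT in the authors' deposited table. A region 46.9 kb from Treml1 and paired with B430306N03Rik was at 1.57 in Vav KO against Tie2 WT in the authors' deposited table. That is the direction opposite to that of Treml1 in the same comparison. In Tie2 KO against Vav KO the same interval was at -1.59 in the authors' deposited table. Another region of B430306N03Rik, 48.2 kb away, was at -1.25 there, and Treml1 was lower there too. Near Gp6, regions paired with D630041G03Rik were at 0.61 in Tie2 KO (72.7 kb away) and at 1.68 in Vav KO (77.1 kb away), both against Tie2 WT in the authors' deposited table, while Gp6 was lower in Tie2 KO. Near Gp1bb, a region 8.9 kb away and paired with Septin5 was at 0.9 in Tie2 KO against Tie2 WT in the authors' deposited table, where Gp1bb had none.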

How the data were processed

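The 14 samples fall into 4 groups by their titles, and 6 lists compare the 5 Tie2 KO, 3 Tie2 WT and 3 Vav KO samples. Build mm10 and the tools MACS2 2.1.2, HOMER 4.10, SAMtools 1.3.1, Bowtie2, Picard and FastQC stand in the submitters' processing notes, without their roles. For scaling, read shifts, duplicates and the authors' test, no source used here gives details. Per the file headers, the authors deposited, per region, an adjusted p-value and a log2 fold change. Per the file headers, the other deposited measures are region width and distance to the gene start in bp. Depth per sample is unknown.

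The abbreviations TKO, TWT and VKO were taken to mean Tie2 KO, Tie2 WT and Vav KO. Gene identifiers were matched to RefSeq genes of GRCm38.p6 (10669 of 10679 lines) for names and gene types, and promoter windows to RefSeq on the same build, whose chromosomes are those of mm10. Slamf5 and Ahsp of the hand-written lists had no match. A region covers a gene start where the lists say so, and regions overlap where they share at least 1 bp. Background shares are of 21896 protein-coding genes. No test was made, since the members and gene lists were chosen with earlier results of these data known. Named are the 9 members, every platelet or mast cell list gene with a region (fold changes for up to 6 per list, comparison and direction), 3 genes most like each member but Gp6, which was listed in 1 comparison only, and Ezh2, Tek and Vav1, with 1 gene of the lists counted but not reported here by name. The genes named as having no region, and the neighbours, were chosen after their values were seen. Python 3.11.15 and pandas 2.3.3 were used, and overlap arithmetic was checked on simulated data.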

Additional observations from a re-analysis of the deposited data

Results flagged for a closer look

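The direct comparison of the knockouts gives the authors' own test of a difference between Tie2 KO and Vav KO. It lists a region of 7 members that overlaps a region called in one knockout against Tie2 WT, which is what singles these out. How many of all listed genes have such an overlap was not counted. Because both knockouts were set against the same Tie2 WT samples, the comparisons are not independent. Lower in Tie2 KO than in Vav KO in the authors' deposited table were Clec1b at -1.53, Cpa3 at -1.62 and -0.89, F2rl2 at -0.99 and Tubb1 at -0.64. Higher in the authors' deposited table were Rab27b at 0.98, Hdc at 0.92 and Gp1bb at 0.76. Rab27b overlapped regions of both other comparisons, which had opposite directions. Outlying samples could not be looked for, since the lists hold no value per sample.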

How the results depend on the processing

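With only rows of an adjusted p at or below 0.01 in the authors' deposited table, no count of members or of listed pathway genes moved by more than 1.5 times in 18 counts. With only absolute log2 fold changes at or above 1, the members higher in the Tie2 knockout against Tie2 WT went from 1 to 0, those lower in Tie2 KO than in Vav KO from 5 to 3 and those higher from 3 to 0. Platelet and megakaryocyte genes went from 13 lower and 4 higher to 4 and 0 in Tie2 KO against Tie2 WT and from 12 and 7 to 7 and 4 between the knockouts. Higher mast cell genes went from 3 to 1 and from 4 to 1 in these comparisons. With only regions over a gene start, members lower in Vav KO than in Tie2 WT went from 4 to 2 and members higher in Tie2 KO than in Vav KO from 3 to 1. Platelet and megakaryocyte genes became 5 lower and 1 higher in Tie2 KO against Tie2 WT, 2 and 0 in Vav KO against Tie2 WT and 5 and 1 between the knockouts. Mast cell genes became 1 higher in Tie2 KO against Tie2 WT, 2 lower and 0 higher in Vav KO against Tie2 WT and 2 higher between the knockouts. With only regions within 2000 bp of a gene start, lower platelet and megakaryocyte genes became 7 in Tie2 KO against Tie2 WT and 7 between the knockouts. Higher ones became 3 and higher mast cell genes 2 in Vav KO against Tie2 WT. Each of these settings uses fewer rows by construction. The remaining counts stayed within 1.5 times, among them the members lower in Tie2 KO than in Tie2 WT, at 4 to 6. Of the 8 members with overlapping regions, 7 shared at least 50% of the shorter region, all but Gp1bb, and with gaps of up to 1000 bp allowed the number was 8. The share of member regions over a gene start was 57.1%, or 71.4% within 1000 bp of it and 50% among regions of the smallest width. The median width was 1199 bp, or 1599 bp over the widest region of each member. No paired analysis was possible because the lists hold no value per sample, and for the same reason no replicate could be left out and depth sets no stated limit.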

Other observations

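The fold changes of Rab27b in the 3 comparisons do not add up across its overlapping regions. In the authors' deposited table the values against Tie2 WT, 0.79 in Tie2 KO and -1.65 in Vav KO, lie 2.44 log2 units apart, while the direct comparison of the knockouts gives 0.98 over a region of 1599 bp that contains both. The regions against Tie2 WT were 999 and 1199 bp wide and share 899 bp, so the values refer to intervals that overlap but are not the same. Why the values do not add up was not tested. How many other genes listed in all 3 comparisons have values that do not add up was not counted. Cys1, the gene most like Rab27b, was at 0.83, -1.62 and 0.99 in the same order in the authors' deposited table. It was picked for its nearness to these very values, so it says nothing on how common the mismatch is. For Treml1 the upstream interval was at -1.61 and -2.1 in the same comparisons of the authors' deposited table, 0.49 units apart, and was not listed between the knockouts.

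In the surroundings of Gp1bb, the direct comparison of the knockouts lists a pair of regions near Tbx1 that share 199 bp and have opposite directions in the authors' deposited table, at 1.11 and -1.2. This pair was chosen after its values were seen.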
